A study of Mus musculus with 2 samples.

Results

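Structural non-coding RNAs work as folded RNA rather than as templates for protein, and 9 genes of this kind were followed in mouse common myeloid progenitors (CMP), the bone marrow cells that give rise to the granulocyte, monocyte, red cell and platelet lineages. The set was the 7SK RNA gene Rn7sk, the signal recognition particle RNA genes Rn7s1 and Rn7s2, the RNase P and RNase MRP RNA genes Rpph1 and Rmrp, the long nuclear RNAs Malat1 and Neat1, and Gm42418 and Gm26917, which lie at a ribosomal RNA (rRNA) locus. They were taken by symbol, through the gene identifier without its version, and all 9 were found among the 43346 mouse genes of both gene tables. Total RNA over 200 nucleotides had been sequenced from 2 libraries, replicate 1 and replicate 2, each from a pool of 100 primary CMP, with spike-in RNA added. The mice were male C57BL/6J, adult, and 5 to 6 weeks of age. Both libraries belong to 1 group, so no treatment or genotype is compared. Per the labels the libraries are biological replicates from different biosamples that share 1 donor identifier, and whether the pools shared animals is not said.

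The RNAs belong to 3 transcription systems. RNA polymerase III makes 7SK, which holds the elongation kinase P-TEFb inactive with HEXIM proteins. It also makes 7SL, the scaffold of the signal recognition particle that brings ribosomes to the endoplasmic reticulum, and the catalytic RNAs of RNase P, which trims tRNA precursors, and RNase MRP, which cuts precursor rRNA. RNA polymerase II makes Malat1, which gathers in nuclear speckles, and Neat1, whose long form builds paraspeckles. RNA polymerase I makes the rRNA precursor, from which the small-subunit 18S rRNA is cut out between spacers.

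The sequences below are the annotated RNAs, given in DNA letters from 5′ to 3′, from GENCODE M21 on build GRCm38. Rn7s1 and Rn7s2 carry the same 300 bases, with 0 differing bases, at chr12:69159295-69159594 on the plus strand and chr12:69361182-69361481 on the minus strand, so their values cannot be told apart.
The first 110 bases of Rn7sk, at chr9:78175524-78175633, minus strand, are shown with the GATC motif in capitals, because this 5′ hairpin region is where HEXIM proteins are known to bind.
Rn7sk: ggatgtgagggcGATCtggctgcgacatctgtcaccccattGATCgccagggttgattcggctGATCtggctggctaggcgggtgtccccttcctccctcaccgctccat
GATC reads the same on both strands. It began at bases 13, 42 and 64 and nowhere else in the 331 bases. Of 138029 annotated transcripts of 110 or more bases, 0.427% held 3 or more GATC in their first 110 bases and 25.5% held at least 1.
Bases 152 to 253 of Rpph1, at chr14:50807515-50807616, minus strand, are shown because they hold a run of 21 bases that occurs in 2 adjoining copies, given in capitals. The copies begin at bases 182 and 203, and 2 annotated genes, Rpph1 among them, held that run 2 or more times.
Rpph1: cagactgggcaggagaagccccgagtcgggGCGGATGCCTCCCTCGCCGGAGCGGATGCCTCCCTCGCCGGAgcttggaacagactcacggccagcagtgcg
The whole Rmrp RNA, at chr4:43492788-43493058, minus strand, is shown with capitals on bases 36 to 159, which also lie, on the opposite strand, in an exon of the protein-coding gene Ccdc107.
Rmrp: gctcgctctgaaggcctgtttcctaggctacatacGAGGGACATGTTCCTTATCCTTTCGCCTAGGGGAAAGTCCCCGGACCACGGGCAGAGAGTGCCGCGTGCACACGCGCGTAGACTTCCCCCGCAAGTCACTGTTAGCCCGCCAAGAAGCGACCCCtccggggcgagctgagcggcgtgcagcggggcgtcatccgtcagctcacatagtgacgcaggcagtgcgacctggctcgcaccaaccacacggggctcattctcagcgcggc
The 3′ regions of Malat1 (chr19:5795967-5796053, minus strand) and Neat1 (chr19:5824708-5824786, minus strand) are shown with the runs they share in capitals.
Malat1: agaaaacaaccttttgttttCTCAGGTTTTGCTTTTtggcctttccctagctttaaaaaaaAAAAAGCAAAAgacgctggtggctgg
Neat1: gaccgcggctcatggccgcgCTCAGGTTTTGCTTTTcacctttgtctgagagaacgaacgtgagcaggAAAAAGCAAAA
The longest run shared by the last 500 bases of both RNAs was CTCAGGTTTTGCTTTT, of 16 bases. Of 55450 annotated genes, only these 2 held it on either strand of a transcript, a share of 0.00361%. The last 11 bases of the long Neat1 form, AAAAAGCAAAA, also stood in Malat1 at bases 6681 to 6691. In the last 500 bases of a transcript, 0.234% of genes held this run on the same strand and 0.474% on either strand. The runs were 25 bases apart in Malat1 and 32 in Neat1, and 2 genes held both in this order. As background, the U-rich run and the A-rich tract pair into a triple helix that protects the ends of both RNAs, and RNase P, whose RNA is Rpph1, makes those ends by cutting after the A-rich tract. The annotated Malat1 runs on for 292 bases past the shared run, while the annotated long Neat1 ends with it.
For the rRNA locus, the first 90 bases of Gm42418 (chr17:39846958-39847047, plus strand) and the last 90 bases of Gm26917 (chr17:39846252-39846341, plus strand) are shown, because they show which part of the rRNA unit each gene covers. In Gm42418 the capitals mark bases 14 to 32, a loop of small-subunit rRNA that is nearly the same in all organisms and serves as the site of universal primers.
Gm42418: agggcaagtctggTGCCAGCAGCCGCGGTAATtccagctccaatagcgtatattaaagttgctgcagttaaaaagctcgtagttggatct
Gm26917: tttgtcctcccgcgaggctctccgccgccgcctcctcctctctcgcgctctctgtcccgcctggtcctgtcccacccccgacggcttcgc
The loop sequence was found in 2 annotated genes, Gm42418 and, on the opposite strand, CT010467.1.

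Sequencing gave 28916263 expected counts in replicate 1 and 26426710 in replicate 2. At these depths, 0 counts (a limit of 3 counts) allow up to 0.104 and 0.114 counts per 1000000. The CMP markers Kit, Cd34 and Mpo were present in both libraries. Of 14 markers of other cells, 8 had no count in either library, and the list summed to 0.00293% and 0.00150% of counts. Only Csf1r reached 1 TPM (transcripts per 1000000, a level per length) in both libraries, at 10.8 and 4.63 TPM. Spike-ins gave 7379 counts in replicate 1 and 4880 in replicate 2.

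The 9 RNAs took a large share of each library, nearly all of it through Gm42418. Together they held 39.6% of counts in replicate 1 and 35.1% in replicate 2. Without Gm42418 the other 8 genes held 1.48% and 2.17%. The 5 RNA polymerase III genes held 0.519% and 0.805% of counts, the 2 RNA polymerase II genes held 0.294% and 0.369%, and the 2 genes of the rRNA locus held 38.8% and 33.9%. Every share of a single gene had a 95% exact binomial interval (Clopper-Pearson) of at most 2.96% of its own value to either side. These intervals cover counting error alone, and reads copied by PCR are not independent molecules. For Rn7s1 and Rn7s2, at 0.0281% and 0.0276% each, the intervals of the 2 libraries overlapped. For every other gene of the set the libraries differed by far more than the intervals.

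**Figure D1:**
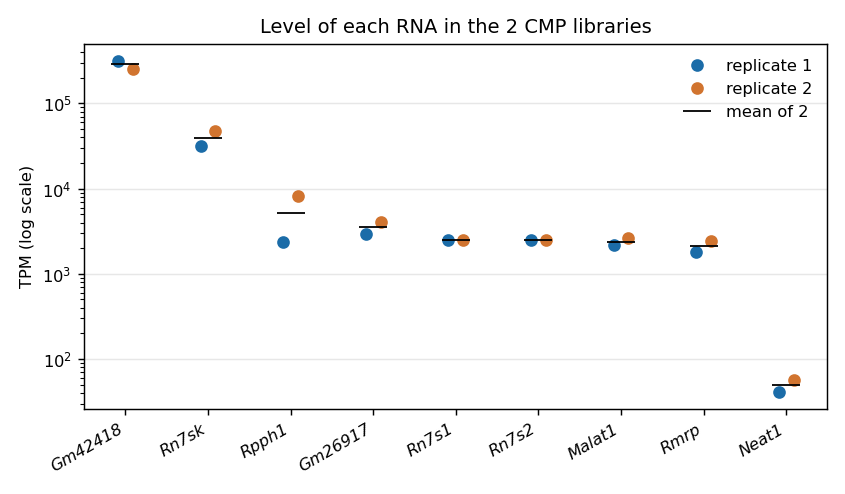
TPM on a log axis of each of the 9 genes in replicate 1 (blue) and replicate 2 (orange), with a bar at the mean of the 2 libraries. Gm42418 and Rn7sk stand above the rest in both libraries, Neat1 stands below them, and the points of Rpph1 are the farthest apart.

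By mean TPM the order was Gm42418, Rn7sk, Rpph1, Gm26917, Rn7s1 with Rn7s2, Malat1, Rmrp and Neat1. Gm42418 did not overlap with Rn7sk over the 2 libraries, nor Rn7sk with Rpph1, nor Rmrp with Neat1. The ranges of Rpph1 and Gm26917 overlapped, as did those of Rn7s2 and Malat1 and of Malat1 and Rmrp. Within libraries, Rpph1 and Gm26917 changed order between replicate 1 and replicate 2, and so did Rn7s2 and Malat1. The places of Rn7s1 and Rn7s2 rest on an even split of reads that cannot be told apart. Their sum, 5026 TPM in replicate 1 and 5004 in replicate 2, was above Malat1 and Gm26917 in both libraries. That sum was above Rpph1 in replicate 1 and below it in replicate 2. Malat1 was above Rmrp in both, at 2165 against 1792 TPM in replicate 1 and 2604 against 2439 in replicate 2. All 9 genes were above 1 TPM, and above 10 TPM, in both libraries.

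Rn7sk (chr9:78175303-78175633, minus strand, 331 bases, classed as misc_RNA) was the most abundant RNA of the set outside the rRNA locus. It had 120566 counts in replicate 1 and 165729 in replicate 2, or 31323 and 47047 TPM, and ranked 4th by TPM among all genes in both. Its mean was 39185 ± 11119 TPM (SD, n = 2). It held 0.417% and 0.627% of all counts. Its share was 0.884% and 1.27% once Gm42418, Gm26917, the mitochondrial rRNAs and the genes annotated as rRNA were left out. The highest protein-coding gene, Lars2, a mitochondrial leucyl-tRNA synthetase, reached 16724 and 5181 TPM. Lars2 is also on the list of rRNA-related loci below, but its counts were not left out of that total. Rn7sk stood above it by 1.87 times in replicate 1 and 9.08 times in replicate 2, or 3.58 times by the means. TPM divides counts by the effective length, which for Rn7sk was 187.4 and 171.8 bases. By plain counts it ranked 7th and 6th.

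Reads of Rn7sk were rarely given to its copies. In the annotated transcripts, 10 other genes matched it at 90% identity or more over at least 100 bases. Gm24447 matched its first 241 bases at 100% identity, and Gm26315 matched bases 5 to 239 at 100%. The 10 copies together held 11 counts in replicate 1 and 123 in replicate 2, or 0.00877% and 0.0744% of the count of Rn7sk. The estimate of the Rn7sk count had a posterior SD of 3 and 9 counts.

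Rn7s1 and Rn7s2, the genes of 7SL, were given exactly the same value. Each had 8115 counts in replicate 1 and 7295 in replicate 2, or 2513 and 2502 TPM. With identical sequences the split between them is not determined: the posterior SD of the Rn7s1 count was 3940 and 2178 counts, or 48.6% and 29.9% of it. The sum of both is therefore the value to read, 5026 and 5004 TPM, with a mean of 5015 ± 15.6 TPM (SD, n = 2). In TPM the 2 libraries were closer for 7SL than for any other RNA of the set. A further 7SL gene, Rn7s6, matches Rn7s1 at 98.60% over 214 bases and had 4 and 5 counts. The 7SK RNA stood above the summed 7SL by 6.23 times in replicate 1 and 9.40 times in replicate 2, a mean log2 TPM ratio of 2.94 ± 0.30 (half-range, n = 2; 1 TPM added to each value).

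Rpph1, the RNase P RNA, differed the most between the libraries. Its locus is chr14:50807449-50807767 on the minus strand, 319 bases. It had 8556 counts in replicate 1 and 26570 in replicate 2, or 2371 and 8085 TPM, a ratio of 3.41. The mean was 5228 ± 4041 TPM (SD, n = 2). The translation elongation factor Eef1a1, the next protein-coding gene below it by mean TPM, was at 4893 and 4705 TPM, so that Rpph1 was at 0.485 times its level in replicate 1 and 1.72 times in replicate 2. It ranked 17th by TPM in replicate 1 and 6th in replicate 2. The related genes Rprl2 and Rprl3, which match its first 204 bases at 93.14% and 94.12%, had no count in either library. In the annotation used here an exon of Ccnb1ip1 runs through Rpph1 on the same strand, sharing 233 bases with it, and that gene was listed at 0 in both tables.

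Rmrp, the RNase MRP RNA at chr4:43492788-43493058 on the minus strand, was lower on average and differed less between the libraries. It had 4762 and 5759 counts, or 1792 and 2439 TPM, with a mean of 2115 ± 458 TPM (SD, n = 2). It lay between the ribosomal protein genes Rpl32, at 2150 TPM on average, and Rps19, at 2094. RNase P and RNase MRP share most of their protein subunits but not their RNA, and Rpph1 stood above Rmrp by 1.32 times in TPM in replicate 1 and 3.32 times in replicate 2. The mean log2 TPM ratio was 1.07 ± 0.66 (half-range, n = 2). Of the 22 genes classed as ribozymes, Rpph1 and Rmrp were the only 2 with any count. Ccdc107, which overlaps Rmrp on the other strand, had 202 and 489 counts, 4.24% and 8.49% of those of Rmrp. Whether the counting used strand is not given in the sources used here, and their reads may not be fully told apart.

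Malat1 (chr19:5795690-5802672, minus strand) and Neat1 (chr19:5824708-5845478, minus strand) are neighbours with 22035 bases between them, and Malat1 was far the higher. The counts of Malat1 were 80549 and 90980, which ranked 9th among all genes in both libraries. In TPM it was at 2165 and 2604, with a mean of 2384 ± 310 (SD, n = 2), between the ribosomal protein genes Rpl23a and Rps27. Neat1 had 4511 and 6571 counts, or 40.5 and 57.4 TPM, with a mean of 48.9 ± 12.0 TPM (SD, n = 2). Its nearest protein-coding genes in level were Bcap31 and Tmem208, at 49.1 and 48.8 TPM. Malat1 stood above Neat1 by 53.5 and 45.4 times in TPM and by 17.9 and 13.8 times in counts. The smaller ratio of counts goes with the longer transcripts of Neat1.

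**Figure D2:**
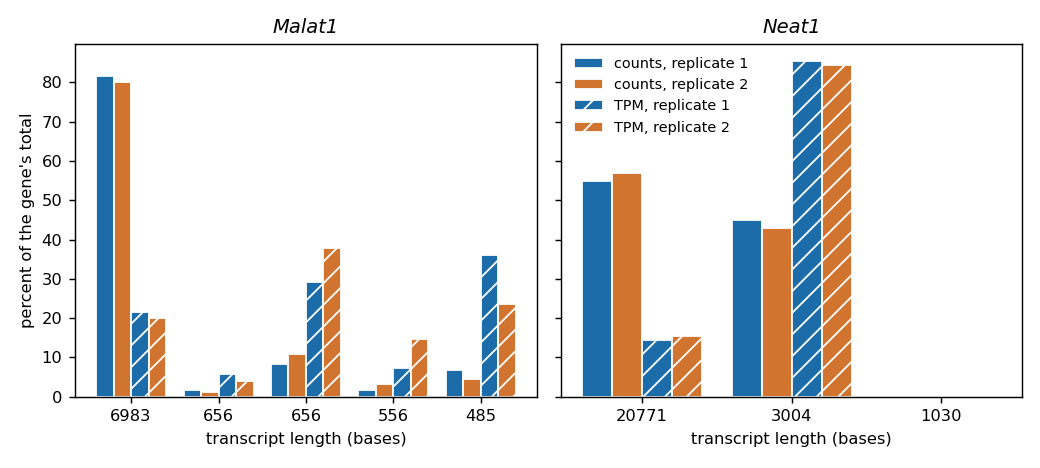
Share of each gene's counts (plain bars) and TPM (hatched bars), in percent, that each annotated transcript took, by transcript length in bases, for Malat1 (left) and Neat1 (right) in replicate 1 (blue) and replicate 2 (orange). The longest transcript takes most counts in both genes, 81.7% and 80.0% for Malat1, but 20.0% to 21.6% of the TPM of Malat1 and 14.5% to 15.4% of that of Neat1.

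The TPM of Malat1 rests on short transcript models. The full-length RNA of 6983 bases held 65805 and 72810 counts, 81.7% and 80.0% of those of the gene, but 21.6% and 20.0% of its TPM, or 468 and 521 TPM. The other 4 models, of 485 to 656 bases, held 18.3% and 20.0% of the counts and 78.4% and 80.0% of the TPM. Among them, the model of 485 bases at the 5′ end of the gene was at 779 TPM in replicate 1 and 616 in replicate 2. A model of 656 bases, ENSMUST00000173523, which has no coordinates in the annotation used here, was at 635 and 985 TPM. All of these models share sequence with the full-length RNA, so the division of reads is an estimate. A repeat in Malat1, bases 555 to 706, had 100 or more matches of at least 90% identity in transcripts of other genes, on either strand.

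Neat1 has a short form and a long form whose 5′ ends all but coincide. The short form, of 3004 bases, had 2033 and 2826 counts and 34.6 and 48.5 TPM. The long form, of 20771 bases, had 2478 and 3745 counts, 54.9% and 57.0% of those of the gene, and 5.85 and 8.86 TPM. Per length the short form was thus ahead in both libraries, with 85.5% and 84.6% of the TPM, and another model, of 1030 bases had no count. The short form lies within the first bases of the long one, so reads there were divided by estimate. Per full-length transcript, Malat1 stood above the long Neat1 by 80.0 times in replicate 1 and 58.8 times in replicate 2.

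Gm42418 and Gm26917 are classed as long non-coding RNAs but lie side by side on the plus strand of an rRNA unit on chromosome 17. Gm26917 (chr17:39843013-39846341, 3329 bases) ends 12 bases before the RefSeq record Rn18s-rs5, an 18S rRNA sequence of 1849 bases that RefSeq classes as a pseudogene. This is the side on which rRNA units carry their 5′ external spacer. Gm42418 (chr17:39846958-39848788, 1831 bases) starts 604 bases into that record, shares 1245 bases or 68.0% of its own length with it, and runs 586 bases past its end. The annotation also holds CT010467.1 and AY036118 on the minus strand there. Neither is an entry of the tables.

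**Figure D3:**
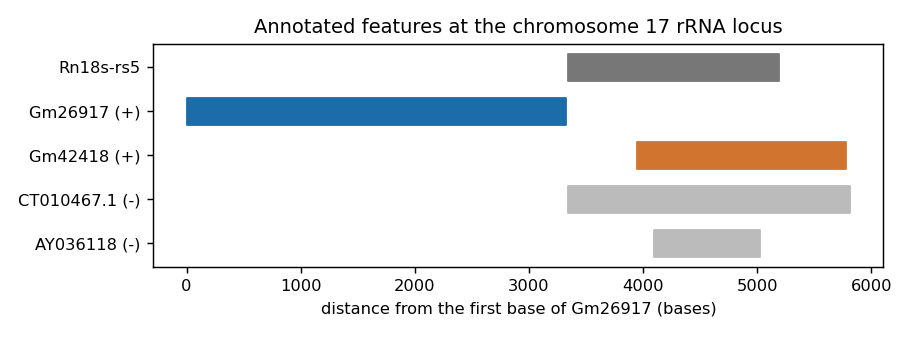
Features at the rRNA locus, drawn to scale by their distance in bases from the first base of Gm26917, with the strand in brackets where the annotation gives it. Gm26917 ends 12 bases before Rn18s-rs5, and 1245 bases of Gm42418 lie inside it.

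Gm42418 was the most abundant entry of both libraries. Whether reads from rRNA units elsewhere in the genome were counted under Gm42418 or Gm26917 was not tested. The values of both genes are therefore not shown to come from this locus alone. The counts of Gm42418 were 11029206 in replicate 1 and 8707790 in replicate 2. These made up 38.1% and 33.0% of all counts, or 318480 and 254492 TPM. Its mean was 286486 ± 45246 TPM (SD, n = 2). It stood above Lars2 by 19.0 times in replicate 1 and 49.1 times in replicate 2, or 26.2 times by the means. Lars2 is itself on the list of rRNA-related loci below. The next protein-coding gene by mean TPM, Eef1a1, was at 4893 and 4705 TPM. Gm26917 had 192765 and 263005 counts, 0.667% and 0.995%, or 2947 and 4051 TPM, with a mean of 3499 ± 780 TPM (SD, n = 2). This placed the spacer-side gene between the mitochondrial mRNAs mt-Co1, at 3612 TPM on average, and mt-Atp6, at 3388. The share of Gm42418 was the higher in replicate 1 and that of Gm26917 in replicate 2. Gm42418 stood above Gm26917 by 108 times in TPM in replicate 1 and 62.8 times in replicate 2, a mean log2 TPM ratio of 6.36 ± 0.39 (half-range, n = 2).

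Among other rRNA-related loci, the mitochondrial rRNAs mt-Rnr1 and mt-Rnr2 together held 14.0% and 16.6% of counts. mt-Rnr1 had 1682592 and 1667926 counts, and mt-Rnr2 had 2374801 and 2731238. With the 2 genes of the chromosome 17 locus and the 353 genes annotated as rRNA, they made up 52.8% and 50.6% of the libraries. The annotated rRNA genes hardly contributed, since 346 of the 353 had no count in either library. The remaining genes of this list were taken by symbol, and whether they hold rRNA sequence was not tested. Lars2, among them, had 1283463 and 395018 counts. It was thus the higher in replicate 1, as was Gm42418 (11029206 and 8707790), while Gm26917 (192765 and 263005) was the higher in replicate 2. Gm10800 had 1296 and 322 counts, Gm26870 had 143 and 68, Cdk8 had 941 and 794, Camk1d had 119 and 290, and Gm10801 had 44 and 34. Gm23935, Gm15564 and Gm37376, the last of which lies antisense within Malat1, were listed at 0.

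A 2-sided exact binomial test compared the libraries. Expected counts were rounded and scaled by TMM (edgeR's trimmed mean of M-values), and p-values were adjusted (Benjamini-Hochberg) over the 13616 genes that reached 10 counts in at least 1 library. The test sets library against library and covers counting error alone. In pools of cells, fewer cells with an RNA and less of it per cell cannot be told apart. It called 78.2% of all genes, 40.6% as higher in replicate 2 and 37.6% as higher in replicate 1. The higher ones made up 51.9% of calls with TMM, 66.3% with total counts and 84.4% with spike-in scaling. All 9 genes were called, 6 of them higher in replicate 2 and 3 higher in replicate 1, where Rn7s1 and Rn7s2 stand for the same reads. With so many genes called, these counts say little about the set, and the sizes are what can be read. The median size of the log2 ratio was 0.25 over the 3497 genes with 1000 or more counts, of which 81.0% were called. With edgeR's exact test at a common dispersion estimated from the same 2 libraries, none of the 13616 genes (0%) and none of the 9 passed, while 1541 genes and none of the 9 had an unadjusted p under 0.05. That dispersion takes in the very difference under test, which leaves little room for calls, so no conclusion is drawn from their absence.

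**Figure D4:**
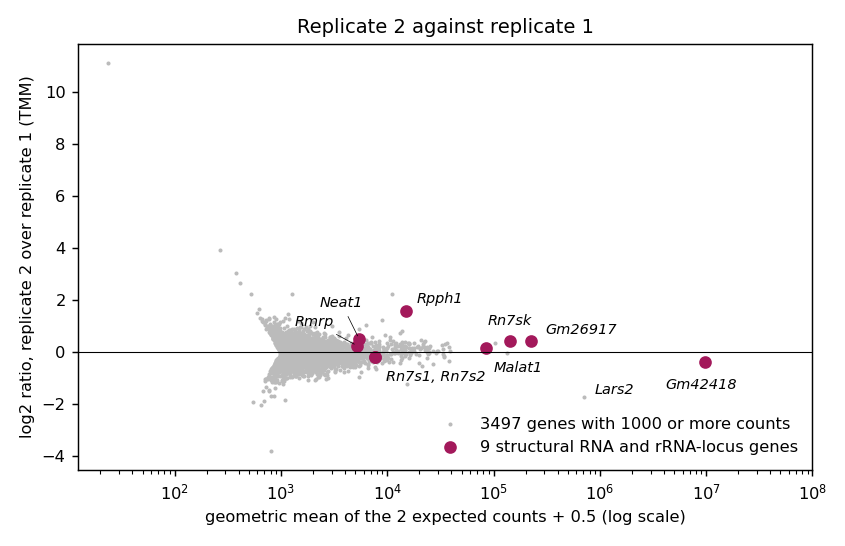
Log2 ratio of replicate 2 over replicate 1 after TMM scaling against the geometric mean of the 2 counts (log axis), for the 3497 genes that reached 1000 counts in at least 1 library (grey) and the 9 genes (purple). Rpph1, at 1.61, stands above the other 8, which lie between -0.37 and 0.51; with spike-in scaling all 9 lie above 0.

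Rpph1 had a log2 ratio of 1.61, a 3.05-fold difference. Only 16 of the 3497 genes with 1000 or more counts had a ratio of larger size. Neat1 followed at 0.51, Rn7sk at 0.43 and Gm26917 at 0.42, all higher in replicate 2. Rmrp at 0.25 (adjusted p = 1.39e-17, binomial test over all genes) and Malat1 at 0.15 (adjusted p = 1.84e-97) were at or under the median size. 7SL was at -0.18 (adjusted p = 2.58e-14) and Gm42418 at -0.37. The sign of these depended on the scaling. With spike-ins the median gene moved from 0.03 to 0.65, and 7SL came to 0.44 and Gm42418 to 0.26. With total counts the median gene was at 0.23 and 7SL at 0.02, no longer called. A scaling shifts all genes by the same amount, so the distance of each gene from the median gene is the same under all of them.

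The genes of the protein partners were nearly all on, at levels far under the gene TPM of the RNAs other than Neat1. For Malat1 this rests on its short models. Its full-length transcript, at 468 and 521 TPM, was closer to the partner highest by mean TPM, Hnrnpk, at 407 and 303. Counts of genes called in this section use the same binomial test and read against the 40.6% and 37.6% of all genes. Over all 21474 protein-coding genes the median was 0.320 and 0.570 TPM, and 9639 were at 1 TPM or more in both libraries. Of 7 proteins of the 7SK particle, 6 were at 1 TPM or more in both. The kinase Cdk9 was at 39.8 and 34.5 TPM, its cyclins Ccnt1 at 29.4 and 34.0 and Ccnt2 at 25.9 and 23.1, and the capping enzyme Mepce at 22.3 and 16.2. None of the 7 was called higher in replicate 2 and 3 were called higher in replicate 1, among them Hexim2, with 30 counts in replicate 1 and 0 in replicate 2. Its relative Hexim1, named here after its value was seen, had 288 and 151 counts. The list had a median log2 ratio of -0.07, against 0.43 for Rn7sk itself.

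Of 9 matched signal recognition particle and receptor genes, 8 were at 1 TPM or more in both libraries, with a list median of 34.4 and 36.0 TPM. Srp14 was at 75.0 and 62.0 TPM and Srp9 at 34.4 and 40.8, the pair of proteins that bind the Alu domain of 7SL. Srp19 was at 61.4 and 47.6 TPM and Srp72 at 49.2 and 56.7. Srp54a was listed at 0, while Srp54c, which has 1886 to 2139 counts, carries a near-identical protein subunit, so this split between copies is uncertain. In the list 3 genes were called higher in replicate 2 and 1 higher in replicate 1.

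Of 11 protein genes of RNase P and RNase MRP, 10 were at 1 TPM or more in both libraries, with a median of 12.4 and 12.2 TPM. Pop5 was at 23.3 and 57.5 TPM, Rpp21 at 13.8 and 36.8, Rpp30 at 13.6 and 16.6 and Pop7 at 13.9 and 15.5. Rpp25 was listed at 0, and its relative Rpp25l had 143 and 173 counts. Here 3 genes were called higher in replicate 2, Pop5 and Rpp21 among them, and 2 higher in replicate 1. The list median of the log2 ratio was 0.24, against 1.61 for Rpph1 and 0.25 for Rmrp.

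**Figure D5:**
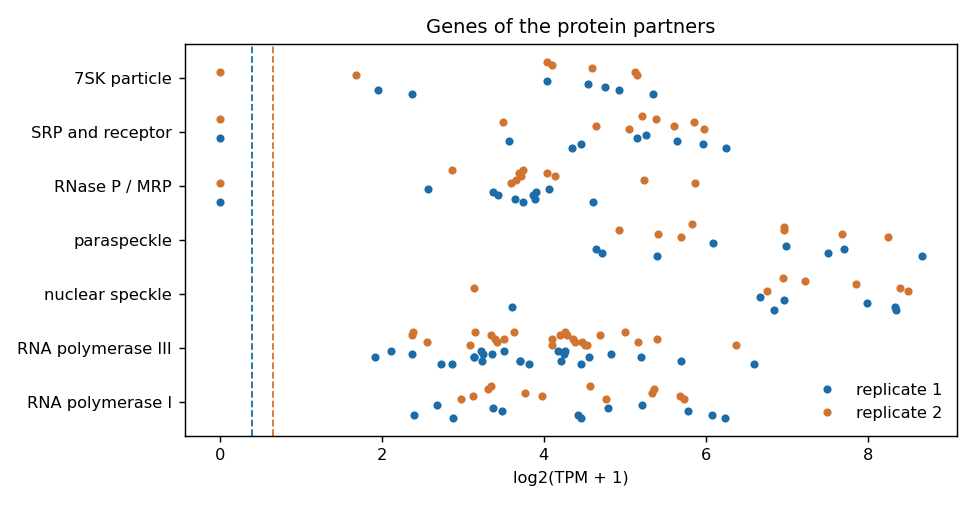
Log2 of TPM + 1 of every matched gene of 7 lists of protein partners and polymerase subunits, in replicate 1 (blue) and replicate 2 (orange), spread vertically only to keep points apart. Dashed lines mark the medians of all protein-coding genes, 0.320 and 0.570 TPM before the transformation, and all but the genes listed at 0 lie to their right.

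Speckle and paraspeckle genes were the most abundant of the partners. All 7 nuclear speckle genes were at 1 TPM or more in both libraries, with a median of 124 and 149 TPM. The splicing factors Srsf2, at 326 and 360 TPM, and Srsf3, at 254 and 231, the scaffold protein Srrm2, at 323 and 336, and Srrm1, at 124 and 149, led the list. All 8 paraspeckle genes were at 1 TPM or more, with a median of 96.5 and 89.8 TPM. Hnrnpk was at 407 and 303 TPM, Sfpq at 181 and 205 and Nono at 126 and 124. These RNA-binding proteins were above Neat1 in TPM in both libraries. Pspc1, at 25.3 and 41.6 TPM, and Rbm14, at 23.9 and 29.5, both named after their values were seen, were below it in both, and Hnrnph3, named likewise, was at 41.0 and 50.6. The 7 speckle genes were below Malat1. In the speckle list 1 gene was called higher in replicate 2 and 3 in replicate 1, and in the paraspeckle list 3 and 3.

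All 25 matched genes of RNA polymerase III and its factors were at 1 TPM or more in both libraries, with a median of 12.0 and 17.4 TPM. Ssb, the La protein that binds the ends of new polymerase III transcripts, was at 95.5 and 81.9 TPM, Snapc4 at 50.9 and 34.9, the repressor Maf1 at 35.6 and 41.2 and Polr3c at 27.5 and 24.8. In all, 9 were called higher in replicate 2 and 7 higher in replicate 1. The 4 called with a log2 ratio of 1 or more were Snapc2 at 1.72, Polr3d at 1.48, Polr3b at 1.28 and Polr3f at 1.03. Among the other SNAPc genes, Snapc4 was at -0.50 and called higher in replicate 1. Snapc1, Snapc3 and Snapc5, named after their values were seen, were at 0.29, 0.15 and 0.19 and not called. The RNAs Rn7sk, Rpph1 and Rmrp, whose promoters are bound by the SNAPc complex, were at 0.43, 1.61 and 0.25. Whether these RNAs follow the SNAPc genes was not tested. All 12 genes of RNA polymerase I and its factors were at 1 TPM or more, with a median of 20.7 and 18.8 TPM. Polr1d was at 74.6 and 52.1 TPM, Taf1d at 66.4 and 50.2, Polr1b at 54.0 and 39.5 and Ubtf at 26.8 and 40.1. Of these 12, 4 were called higher in replicate 2 and 5 higher in replicate 1.

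Other structural RNAs had few counts beside the 9, though per length several of these short RNAs were above Neat1. In TPM, Rnu1a1 was at 233 and 535, Snord118 at 224 and 164, Rnu3a at 169 and 105 and Scarna13 at 77.1 and 170, against 40.5 and 57.4 for Neat1. The 18 matched genes summed to 0.00547% and 0.00555% of counts. RNA over 200 nucleotides had been kept, and each of the 9 genes has a transcript of 271 bases or more. Of the longer ones, Scarna2, of 414 bases, had 399 and 348 counts, Scarna13 had 211 and 415, Rnu3a had 267 and 141, Rnu3b1 had 72 and 0, Snora73b had 150 and 24, Snora73a had 89 and 30, and Terc, the telomerase RNA, had 21 and 1. Of those under 200 bases, Rnu1a1, a U1 spliceosomal RNA, had 174 and 322 counts, Snord118 had 82 and 47, Rnu2-10 had 44 and 80, Rnu11 had 34 and 20, Rnu12 had 35 and 1 and the vault RNA Vaultrc5 had 0 and 32. The Y RNA genes Rny1 and Rny3, with Rnu7 and Rnu1b1, were listed at 0. Rn7sk, Rn7s1 and Rn7s2 held 99.70% and 99.85% of the counts of all 562 genes classed as misc_RNA, and Gm42418, Gm26917, Malat1 and Neat1 held 99.71% and 99.66% of those of 2777 genes classed as lincRNA.

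Most genes around the RNAs had far fewer counts than the RNA beside them, except Rps29 next to Rn7s1. Within 10000 bases of Rn7sk lie C920006O11Rik, 280 bases away on the other strand with 224 and 32 counts, Ick with 619 and 483, and Gsta4 with 0 and 19. The log2 ratio of C920006O11Rik was -2.82 while that of Rn7sk was 0.43. Rps29, a ribosomal protein gene 108 bases from Rn7s1 on the other strand, had 7142 and 9887 counts, Lrr1 had 96 and 186, and Gm24499 none. Nemf, near Rn7s2, had 1403 and 1371. Parp2, 73 bases from Rpph1 on the other strand, had 1153 and 1001 counts, a log2 ratio of -0.23 against 1.61 for Rpph1. Near Rmrp, Arhgef39 had 284 and 416 counts and Sit1 none.

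Inside Malat1, Gm27694 had no count. Around Neat1, Frmd8 had 586 and 498 counts, and Frmd8os, Gm27533 and Gm28006 had none. Gm27505, of 110 bases within Neat1 on the same strand, had 0 and 28 counts. Gm27702, a small RNA gene that begins at the base after the 3′ end of Neat1, had no count in either library, and RNA of its size was outside the range kept.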

How the data were processed

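Total RNA-seq of 2 libraries was used, each with tables of genes and of transcripts. Per the labels and the deposited file descriptions, reads were aligned to mouse build mm10 with GENCODE M4. The names of aligner and quantifier were not given in the sources used here. Expected counts, as deposited, are estimates that split a read over the genes it fits, and the columns are those of RSEM output. TPM, as deposited, sums to 1000000 over every entry of a table, with tRNA and spike-ins. The deposited percent values give each transcript's share of its gene's TPM.

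Symbols, coordinates and RNA sequences came from GENCODE M21 (GRCm38, the same build), which matched 42462 of 43346 mouse genes. The rRNA record came from RefSeq (GRCm38.p6). Shares are of all expected counts of a library. Short RNAs have small effective lengths, which raises their TPM and its sensitivity to the fragment length. Expected counts were rounded and tested with a 2-sided exact binomial test (scipy 1.17.1) after TMM scaling (edgeR 4.0.16, R 4.3.3), over genes that reached 10 counts in at least 1 library, adjusted by Benjamini-Hochberg and called under 0.05. Genes annotated as rRNA, tRNA entries and spike-ins were left out of the test. Copies were sought with BLAST 2.17.0 at 90% identity over 100 bases. The test was checked on simulated counts: of 60 genes changed 4-fold, 59 were called, of 70 changed 2-fold 57, of 70 changed 1.5-fold 50, and 1 of 13146 unchanged genes. The simulated counts held counting error alone, as the test assumes. They therefore do not show how it behaves with the larger variation between the real libraries. With 2 libraries an exact sign-flip test cannot go below p = 0.5, so none is given for levels, and p-values measure the difference between these 2 samples, which may be technical. DESeq2 1.42.0 size factors, total counts and spike-ins were tried as other scalings.

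Named genes were the 9 genes, the protein-coding genes next to each in mean TPM, per partner list the 4 highest, up to 4 below 1 TPM in both libraries and those called with a log2 ratio of 1 or more in size, and all genes within 10000 bases; 1 gene and 1 sequence that this would include are not reported here. The genes and lists were chosen with earlier results of these data known. FPKM values were not used here.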

Additional observations from a re-analysis of the deposited data

How the results depend on the processing

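All 9 genes stayed at 1 TPM or more in both libraries with thresholds of 0.1 and 10 TPM. Without Gm42418, Gm26917, the mitochondrial rRNAs and the genes annotated as rRNA in the total, TPM of the other 7 was higher for each (74684 on average for Rn7sk). With edgeR's exact test at the common dispersion, 0.575, the count of called genes was 0 of the 9, and 0 of all genes in place of 10647. This dispersion was estimated from the same 2 libraries, which leaves little room for calls. The other scalings and count minimums left 7 to 9 of the 9 called. With spike-in scaling the log2 ratio turned to 0.44 for Rn7s1, 0.44 for Rn7s2 and 0.26 for Gm42418. With total counts it turned to 0.02 for Rn7s1 and 0.02 for Rn7s2. From counts without length correction the log2 ratio of Malat1 over Neat1 was 3.97 in place of 5.59 and that of Gm42418 over Gm26917 was 5.44 in place of 6.36, since the transcripts differ in length. At 10 TPM, 13 in place of 25 RNA polymerase III genes were counted. From either library alone, Rpph1 over Rmrp was 0.40 or 1.73, and no ratio changed sign. No paired analysis was possible because both libraries are in 1 group. Depth limits the genes listed at 0, not the 9.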
